A study of Homo sapiens with 6 samples.

Results

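The snoRNA host lncRNAs are long non-coding genes whose introns carry small nucleolar RNAs (snoRNAs). GAS5, SNHG1, SNHG3, SNHG5, SNHG6, SNHG7, SNHG8, SNHG12, SNHG15 and SNHG16 were chosen by name, and all 10 were found among the 43260 genes with a matching probe on the array. Their members are the 154 probes, of 125601 that are not controls, whose sequence matched a transcript of 1 of these genes exactly and in sense. The columns for gene names in the scanner files repeat the probe names, so no probe could be picked by symbol. Of the 154 member probes, 150 passed the filter on dim probes, which asks for a signal flagged well above background on each of the 3 arrays of 1 label or the other, and were tested.

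The study names the cells as SKOV3, an established human ovarian carcinoma cell line, while the array titles read SKOV-1. Their RNA was read on Agilent arrays with 1 dye. For 72 h the cells received either 1α,25(OH)2D3, the hormonally active form of vitamin D, at 100 nmol/L (3 arrays, labelled VD below) or its solvent ethanol (3 arrays, labelled vehicle). Nothing in the labels or the methods says that arrays of 1 label came from separate cultures, so p-values measure only the spread between these arrays. Values are the deposited log2 values, which had been normalized by quantiles, and a fold change is label VD minus label vehicle.

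The labels were checked with CYP24A1, the enzyme that degrades 1α,25(OH)2D3 and a classical target of the vitamin D receptor. Its probe A_23_P28815 read 2.23, 13.84 and 3.30 on VD replicates 1, 2 and 3, and 14.18, 4.75 and 14.34 on vehicle replicates 1, 2 and 3. Its signal passed background on VD replicate 2, vehicle replicate 1 and vehicle replicate 3 and nowhere else, so 4 of the 6 arrays went against their labels. The labels were kept as the only groups, and every direction below is between arrays as labelled. VD replicates 1 and 2 were on slide 1 and the other 4 arrays on slide 2. Between 49.1% (vehicle replicate 2) and 57.5% (VD replicate 1) of the probes were well above background. The epithelial markers KRT7, KRT8 and ERBB2 had log2 values of 13.70 to 16.41 on every array, and KRT18, KRT19, EPCAM and MUC1 of 6.88 to 13.68. Of 5 markers of other cells, LUM and DCN had no probe that passed the filter, while PTPRC, CD3E and PECAM1 had a probe that passed with values of 5.44 to 7.50. In bulk RNA, fewer cells of a kind and less RNA per cell cannot be told apart.

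A snoRNA is cut out of the intron of its host after splicing and works in the nucleolus. C/D box snoRNAs (SNORD) guide the methylation of ribosomal RNA, and H/ACA box snoRNAs (SNORA) guide its pseudouridylation. The spliced exons of the host go to the cytoplasm, where for GAS5 and several SNHG genes the RNA is translated briefly and removed by nonsense-mediated decay. Many hosts, GAS5 among them, belong to the genes with a terminal oligopyrimidine start, which they share with ribosomal protein genes. Exon, intron and snoRNA probes of 1 gene can therefore read different products of the same transcription.

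Each probe was placed on GENCODE release 44 (hg38) by its sequence. A probe counts as exon when each of its bases is exonic in at least 50% of the transcripts of the gene that span it, and otherwise as intron, while a probe with at least 1 base in a RefSeq snoRNA counts as snoRNA. The 154 probes were 76 exon, 35 intron and 43 snoRNA probes, and 29 of the last lay wholly in a snoRNA. A probe inside a snoRNA cannot tell the finished snoRNA from the unspliced host. An intron probe can still lie largely in an exon. OEV5_61814 of SNHG1 has 51 of its 60 bases in an exon of the canonical transcript. The kinds thus do not cleanly separate spliced from unspliced RNA. GAS5 had 31 probes (9 exon, 13 intron, 9 snoRNA), SNHG1 27 (8, 6 and 13) and SNHG5 28 (25, 1 and 2). SNHG6 had 13 (8, 1 and 4), SNHG12 12 (3, 2 and 7), SNHG16 12 (5, 4 and 3) and SNHG15 11 (7, 3 and 1). The fewest were those of SNHG7 (8), SNHG8 (7) and SNHG3 (5). In SNHG5, 9 probes also matched a second annotated gene in sense, and 5 probes (of SNHG6, SNHG7 and SNHG16) lie opposite a gene on the other strand.

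The probes below show these kinds for the genes on which the results turn, each being the probe of its kind with the highest mean. They are printed 5′ to 3′ in the sense of the RNA, with bases inside an annotated snoRNA in capitals. The first GAS5 probe joins exons 8 and 9 of the canonical transcript (minus strand, chr1:173864692-173865275), and the second fills SNORD76 (chr1:173866635-173866694). The third GAS5 probe shares most of its exon 8 bases with the first and runs on into the intron (chr1:173865213-173865272).
GAS5 exon (OEV5_55174): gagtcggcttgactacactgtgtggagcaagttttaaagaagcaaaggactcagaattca
GAS5 SNORD76 (A_21_P0000484): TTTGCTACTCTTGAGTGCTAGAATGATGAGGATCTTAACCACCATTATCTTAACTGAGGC
GAS5 intron (OEV5_73657): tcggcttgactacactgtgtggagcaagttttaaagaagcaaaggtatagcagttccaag

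SNHG1 lies on the minus strand of chromosome 11. Its exon probe is in exon 11, the last (chr11:62852547-62852606), its snoRNA probe fills SNORD26 (chr11:62855292-62855351), and its intron probe runs from exon 4 into the next intron (chr11:62854879-62854938).
SNHG1 exon (OEV5_57963): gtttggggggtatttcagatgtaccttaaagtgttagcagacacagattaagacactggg
SNHG1 SNORD26 (A_21_P0000258): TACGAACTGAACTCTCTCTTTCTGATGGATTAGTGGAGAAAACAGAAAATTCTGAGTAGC
SNHG1 intron (OEV5_61814): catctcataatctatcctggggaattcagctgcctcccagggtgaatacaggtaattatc

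SNHG3 (plus strand) and SNHG12 (minus strand) both lie on chromosome 1. The SNHG3 probes are in exon 3 (chr1:28509243-28509302) and in SNORA73A (chr1:28507512-28507571), and those of SNHG12 join exons 4 and 5 (chr1:28579573-28579956) and fill part of SNORA61 (chr1:28579764-28579823), which lies in the intron between those exons. The SNHG16 probes are on the plus strand of chromosome 17, in an exon (chr17:76564954-76565013) and in SNORD1C (chr17:76558809-76558868).
SNHG3 exon (OEV5_59875): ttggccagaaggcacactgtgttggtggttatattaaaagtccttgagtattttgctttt
SNHG3 SNORA73A (A_33_P3316505): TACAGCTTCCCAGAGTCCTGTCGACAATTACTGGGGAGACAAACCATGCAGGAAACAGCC
SNHG12 exon (OEV5_53073): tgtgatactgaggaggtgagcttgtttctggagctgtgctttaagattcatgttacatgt
SNHG12 SNORA61 (A_21_P0000341): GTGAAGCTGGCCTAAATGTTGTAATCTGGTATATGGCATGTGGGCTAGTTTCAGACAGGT
SNHG16 exon (OEV5_54224): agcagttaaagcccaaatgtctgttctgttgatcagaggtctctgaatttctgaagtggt
SNHG16 SNORD1C (A_21_P0000498): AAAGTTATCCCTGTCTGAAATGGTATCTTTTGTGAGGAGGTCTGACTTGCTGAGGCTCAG

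To see which hosts have an annotated terminal oligopyrimidine start, the RefSeq promoter table (GRCh38.p14) was searched on the gene's strand for a C at the first transcribed base followed by at least 4 bases that are each C or T. SNHG6 and SNHG15 had no entry, and of the other 8 genes 2 (SNHG5 and SNHG12) had such a start, as did 4.07% of all 35116 promoters in the table. The first 30 transcribed bases of these 2 genes and of SNHG1 and GAS5 are shown with the run that begins with C in capitals. The run was 11 bases in SNHG12, 5 in SNHG5 and 3 in SNHG1, and the start of GAS5 annotated there had none.
SNHG12 start: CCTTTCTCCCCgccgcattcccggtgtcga
SNHG5 start: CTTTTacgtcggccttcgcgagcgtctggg
SNHG1 start: CTCatttttctactgctcgtggtaagtggc
GAS5 start: agatgtgtttattttggagcctacaccagc

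The first question was whether the hosts differ between the labels. No member probe of the 150 tested had both a fold change over 2 and an unadjusted p below 0.05, against 0.745% of all 63337 probes tested. An unadjusted p under 0.05 in the limma fit was reached by 3 member probes, against 6.77% of all probes. All 3 were lower with label VD, a direction that 2.76% of all probes had with such a p. No member probe and no other probe had a Benjamini-Hochberg adjusted p under 0.05 in limma (0.0%), and the smallest adjusted p was 0.701. The median log2 fold change of the member probes was -0.27, against -0.0037 over all probes tested. It was below 0 for 139 of 150 member probes, against 50.6% of all probes. The direction was thus shared by most member probes. The size of their median stood below the spread between arrays of 1 label, where the member medians had a pooled SD of 0.35. Some probes changed by more than their own spread, such as OEV5_66933 of SNHG7 at -0.75 (SD 0.16 with label VD and 0.31 with label vehicle). Many member probes cover overlapping bases of the same gene, and all were read on the same arrays, so the 139 are not separate readings. GAS5, SNHG1 and SNHG5 supplied 31, 27 and 27 of the 150.

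**Figure D1:**
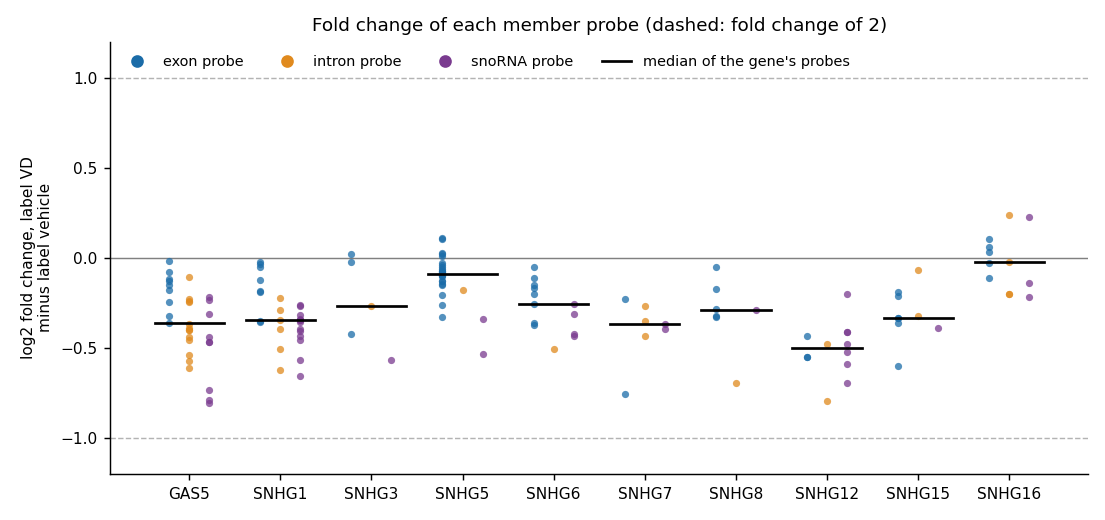
Log2 fold change (label VD minus label vehicle, vertical axis) of the 150 tested probes of the 10 genes (horizontal axis). Points are probes coloured by place in the gene and bars are gene medians. All probes lie between the dashed lines of a fold change of 2, from -0.81 to 0.24, and those of SNHG16 and SNHG5 lie closest to 0.

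The 3 probes with an unadjusted p under 0.05 came from SNHG7, SNHG1 and GAS5, and their sequences follow, marked as above. The first is in exon 6 of SNHG7 (minus strand, chr9:136722259-136722318). The second is in an intron of SNHG1 and has 1 base in SNORD31 (minus strand, chr11:62853267-62853326). The third fills SNORD75 of GAS5 (minus strand, chr1:173866879-173866938).
SNHG7 exon 6 (OEV5_66933): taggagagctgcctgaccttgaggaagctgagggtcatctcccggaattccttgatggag
SNHG1 next to SNORD31 (OEV5_60454): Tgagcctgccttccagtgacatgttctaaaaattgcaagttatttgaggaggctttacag
GAS5 SNORD75 (A_21_P0000483): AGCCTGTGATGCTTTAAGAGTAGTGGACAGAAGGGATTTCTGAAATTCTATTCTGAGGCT

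The SNHG7 probe read 5.41, 5.52 and 5.72 on VD replicates 1, 2 and 3 and 5.95, 6.54 and 6.41 on vehicle replicates 1, 2 and 3, so its labels did not overlap. Its log2 fold change was -0.75 (SE 0.20, limma adjusted p = 0.701). The probe matched only 1 of the 10 annotated SNHG7 transcripts. Exon probe OEV5_55766, which matched 8 of them, had a log2 fold change of -0.23. The SNHG1 probe read 8.76, 8.65 and 9.00 with label VD and 9.00, 9.79 and 9.59 with label vehicle, a log2 fold change of -0.65 (SE 0.23, limma adjusted p = 0.701). Here VD replicate 3 was just above vehicle replicate 1. The SNORD75 probe read 7.05, 7.18 and 6.80 with label VD and 7.10, 8.07 and 8.28 with label vehicle, a log2 fold change of -0.81 (SE 0.31, limma adjusted p = 0.701). Its vehicle replicate 1 lay among the VD arrays.

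Labels did not overlap for 3 member probes, all lower with label VD, where 5.18% of all probes tested were lower and 7.03% higher without overlap. These were the SNHG7 exon 6 probe, the SNORA17B probe of SNHG7 and a SNORA44 probe of SNHG12. SNORA17B read 10.12, 10.10 and 10.34 with label VD and 10.36, 10.86 and 10.44 with label vehicle. The share of members is below the background share.

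The clearest feature of the member probes was the order of the arrays. The highest of the 6 values was on vehicle replicate 2 for 115 of the 150 probes (76.7%) and on vehicle replicate 3 for 31 (20.7%), where each array held the highest value for 15.1% to 17.4% of all probes tested. The lowest value was on vehicle replicate 1 for 89 probes (59.3%), on VD replicate 1 for 33, on VD replicate 3 for 17 and on VD replicate 2 for 11. The highest and the lowest array of most member probes thus carried the same label. No member probe had its lowest value on vehicle replicates 2 or 3. Because many of these probes overlap and all share the same arrays, the counts are not of separate readings.

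**Figure D2:**
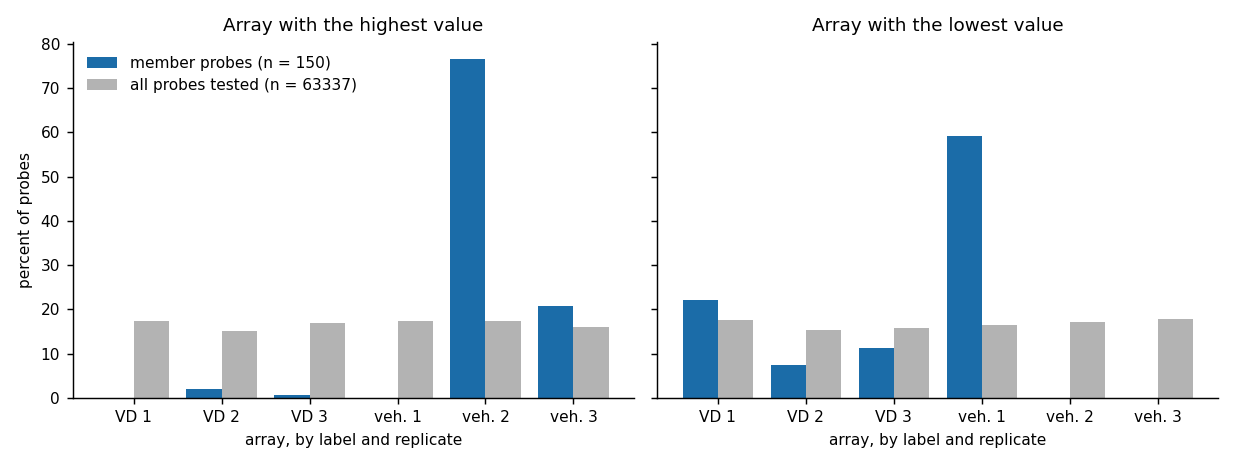
Percent of probes (vertical axis) whose highest value (left) or lowest value (right) of the 6 arrays was on the array named on the horizontal axis, for the 150 member probes (blue) and all 63337 probes tested (grey). Vehicle replicate 2 held the highest value for 76.7% of the member probes and vehicle replicate 1 the lowest for 59.3%.

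As a distance from each probe's own median over the 6 arrays, the member median was -0.19, 0.02 and -0.04 on VD replicates 1, 2 and 3. It was -0.35, 0.61 and 0.24 on vehicle replicates 1, 2 and 3. The median over all probes tested was within 0.01 of 0 on each array. With the scanner signals, set relative to each array's 75th percentile, the member medians were -0.19, 0.04 and -0.08 with label VD and -0.36, 0.63 and 0.27 with label vehicle, so the order did not rest on the quantile normalization. Vehicle replicate 2 was also the array with the fewest probes well above background (49.1%), and the part of this in the order was not tested.

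The CYP24A1 values stand beside these medians array by array. On VD replicates 1, 2 and 3 CYP24A1 read 2.23, 13.84 and 3.30 where the member median was -0.19, 0.02 and -0.04. On vehicle replicates 1, 2 and 3 it read 14.18, 4.75 and 14.34 where the member median was -0.35, 0.61 and 0.24. The arrays were not grouped or tested by CYP24A1.

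**Figure D3:**
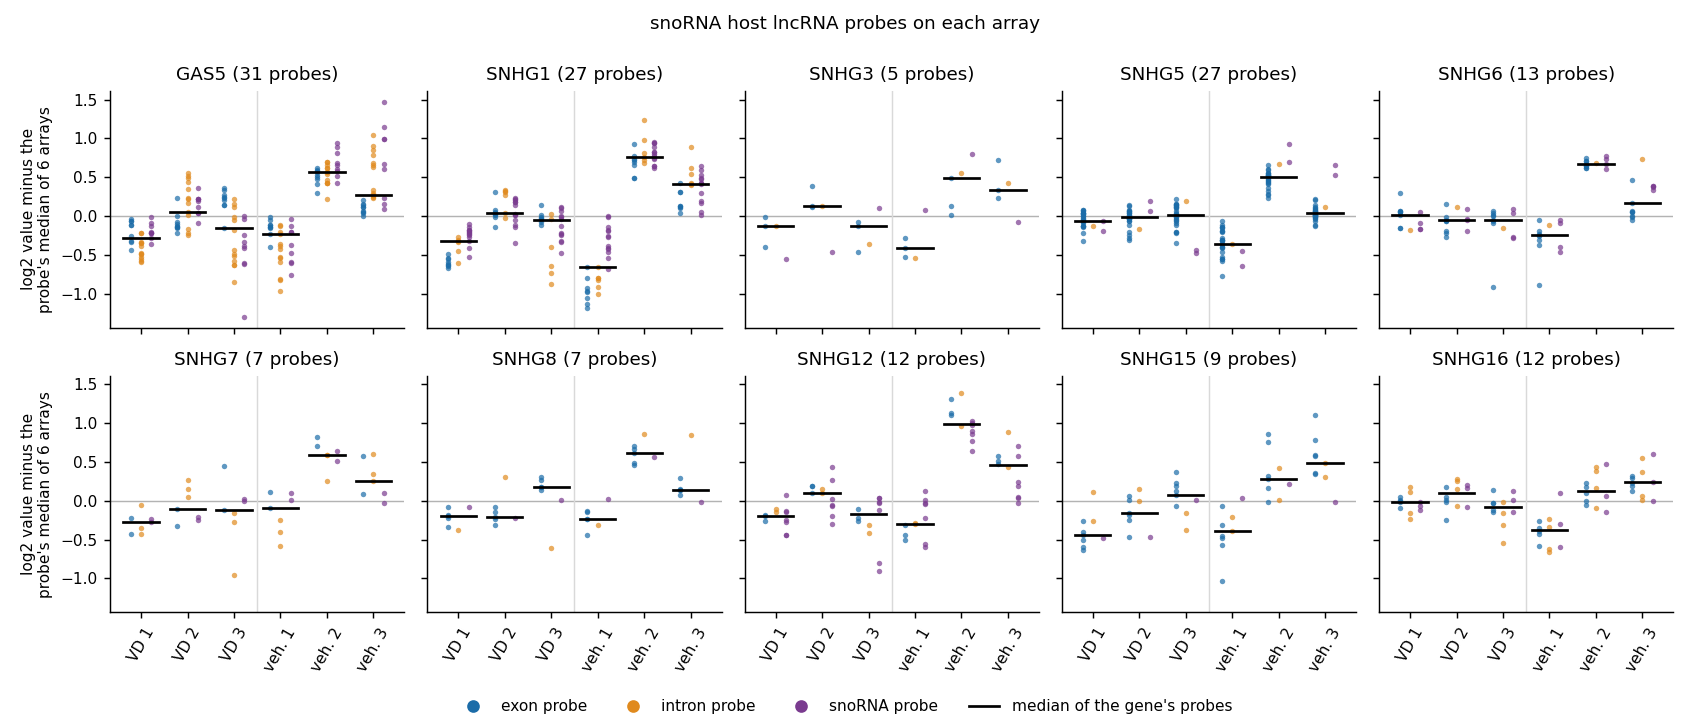
Log2 value of each tested probe minus its own median over the 6 arrays (vertical axis) on each array by label and replicate (horizontal axis), 1 panel per gene. Points are probes coloured by place in the gene and black bars are the median of the gene's probes. The gene median is highest on vehicle replicate 2 in 8 genes and on vehicle replicate 3 in SNHG15 and SNHG16.

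By gene the order was nearly the same. The median over the probes of a gene was highest on vehicle replicate 2 in 8 of 10 genes and on vehicle replicate 3 in SNHG15 and SNHG16. It was lowest on vehicle replicate 1 in 7 genes and on VD replicate 1 in 3. On vehicle replicate 2 the gene medians ran from 0.13 in SNHG16 to 0.99 in SNHG12, and on vehicle replicate 1 from -0.66 in SNHG1 to -0.09 in SNHG7. Every gene stood above its own median on vehicle replicates 2 and 3. With exon probes alone the median was highest on vehicle replicate 2 in 7 genes and on vehicle replicate 3 in SNHG3, SNHG15 and SNHG16. It was then lowest on vehicle replicate 1 in 8 genes and on VD replicate 1 in SNHG7 and SNHG15.

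GAS5, a host first described as a transcript that accumulates in growth-arrested cells, had fold changes below 0 in all 31 probes, from -0.81 to -0.02 with a median of -0.36. Its exon probe across exons 8 and 9 read 9.89, 10.08 and 10.36 with label VD (10.11 ± 0.24, SD, n = 3) and 10.07, 10.79 and 10.43 with label vehicle (10.43 ± 0.36, SD, n = 3). The labels overlapped, with a log2 fold change of -0.32 (SE 0.23, limma adjusted p = 0.723). Its brightest probe, in SNORD76, a C/D box snoRNA, read 11.00, 10.92 and 11.01 with label VD and 10.88, 11.82 and 11.16 with label vehicle (log2 fold change -0.31, SE 0.24, limma adjusted p = 0.741). The VD arrays and vehicle replicate 1 lay within 0.2 of each other, below the other 2.

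Within GAS5 the probes of different places did not put the same array first. All 9 exon probes were highest on vehicle replicate 2. Of the 13 intron probes, 7 were highest on vehicle replicate 3 and 5 on vehicle replicate 2, and of the 9 snoRNA probes 5 and 4. On VD replicate 3 the exon probes had a median distance of 0.23, against -0.44 for the intron and -0.38 for the snoRNA probes.

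In SNHG1, which hosts 8 named C/D box snoRNAs, vehicle replicate 2 was highest in all 27 probes, as it was in all probes of SNHG5, SNHG8 and SNHG12. Its exon probe in exon 11 read 11.46, 12.07 and 11.97 with label VD (11.83 ± 0.33, SD, n = 3) and 11.05, 12.68 and 12.33 with label vehicle (12.02 ± 0.86, SD, n = 3). The lowest and the highest array both carried label vehicle, and the log2 fold change was -0.19 (SE 0.41, limma adjusted p = 0.909). SNORD26 read 11.01, 10.98 and 11.21 with label VD and 10.98, 11.73 and 11.28 with label vehicle. All 8 exon and all 6 intron probes were lowest on vehicle replicate 1, and only 6 of the 13 snoRNA probes. The median distance on that array was -0.97 for exon, -0.81 for intron and -0.26 for snoRNA probes.

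SNHG12, which hosts SNORA44, SNORA61, SNORA16A and SNORD99, had the lowest gene median (-0.50), with all 12 probes below 0. Its exon probe across exons 4 and 5 read 8.02, 8.39 and 8.18 with label VD (8.19 ± 0.18, SD, n = 3) and 7.84, 9.59 and 8.80 with label vehicle (8.74 ± 0.88, SD, n = 3). The log2 fold change was -0.55 (SE 0.40, limma adjusted p = 0.727), and vehicle replicate 1 was below every VD array. The SNORA61 probe read 11.07, 10.80 and 10.87 with label VD and 10.96, 11.99 and 11.03 with label vehicle (log2 fold change -0.41, SE 0.28, limma adjusted p = 0.720). On this probe vehicle replicate 2 stood apart and the other 5 arrays lay close together.

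SNHG3 hosts SNORA73A and SNORA73B, and 4 of its 5 probes were below 0. Its probe in SNORA73A, an H/ACA box snoRNA known for its part in processing the ribosomal RNA precursor, read 12.57, 12.65 and 13.23 with label VD and 13.20, 13.92 and 13.04 with label vehicle. The log2 fold change was -0.57 (SE 0.28, limma adjusted p = 0.701), and VD replicate 3 was above 2 vehicle arrays. Its exon probe in exon 3 read 10.22, 10.49 and 10.22 with label VD and 9.83, 10.48 and 10.69 with label vehicle, a log2 fold change of -0.02 (SE 0.24, limma adjusted p = 0.984). The other exon probes had log2 fold changes of 0.02 (SE 0.18) and -0.43 (SE 0.35), so the exon probes spanned most of the way to the snoRNA probe, and the difference between places was not tested. All 3 exon probes were highest on vehicle replicate 3.

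SNHG7, host of SNORA17A and SNORA17B, had 7 of 7 tested probes below 0, with a median of -0.37. Its brightest probe, in SNORA17A, read 10.37, 10.43 and 10.66 with label VD and 10.74, 11.28 and 10.61 with label vehicle (log2 fold change -0.39, SE 0.21, limma adjusted p = 0.701). Its exon probe OEV5_55766 read 9.33, 9.45 and 10.00 with label VD and 9.46, 10.37 and 9.64 with label vehicle, a log2 fold change of -0.23 (SE 0.29, limma adjusted p = 0.829). Vehicle replicate 2 was highest on both probes, and the labels overlapped on both.

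SNHG8, host of SNORA24, was highest on vehicle replicate 2 in all 7 probes. SNORA24 read 9.83, 9.68 and 9.92 with label VD and 9.94, 10.47 and 9.90 with label vehicle (log2 fold change -0.29, SE 0.20, limma adjusted p = 0.718). The exon probe A_32_P38467 read 8.35, 8.37 and 9.00 with label VD and 8.55, 9.31 and 8.82 with label vehicle (log2 fold change -0.32, SE 0.26, limma adjusted p = 0.749). Its only intron probe, OEV5_68242, spread more widely: it read 6.08, 6.77 and 5.85 with label VD and 6.15, 7.32 and 7.31 with label vehicle.

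SNHG15, host of SNORA9 and a gene known for the short life of its RNA, had all 9 tested probes below 0 (median -0.33). SNORA9 read 8.66, 8.67 and 9.15 with label VD and 9.17, 9.35 and 9.12 with label vehicle (log2 fold change -0.39, SE 0.19, limma adjusted p = 0.701). Its brightest exon probe, A_24_P506977, read 6.08, 6.40 and 6.78 with label VD and 6.02, 7.35 and 7.69 with label vehicle (log2 fold change -0.60, SE 0.42, limma adjusted p = 0.722). Of its 6 tested exon probes 4 were highest on vehicle replicate 3.

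SNHG6, host of SNORD87, had all 13 probes below 0 (median -0.26), and 12 of them were highest on vehicle replicate 2. Its brightest probe, in an exon, read 10.15, 9.93 and 10.18 with label VD and 9.91, 10.82 and 10.14 with label vehicle (log2 fold change -0.20, SE 0.25, limma adjusted p = 0.829). Vehicle replicate 2 stood about 0.6 above the next array, and the other 5 arrays spanned less than 0.3.

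SNHG5 and SNHG16 lay closest to 0. In SNHG5, host of SNORD50A and SNORD50B, 22 of 27 tested probes were below 0, with a median of -0.09, and all 27 were highest on vehicle replicate 2. Its brightest probe, in an exon, read 9.85, 10.05 and 10.17 with label VD and 9.78, 10.48 and 10.08 with label vehicle (log2 fold change -0.09, SE 0.21, limma adjusted p = 0.917). Its SNORD50A and SNORD50B probes had log2 fold changes of -0.54 and -0.34.

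SNHG16, host of SNORD1A, SNORD1B and SNORD1C, had 7 of 12 probes below 0 and a median of -0.02. Its exon probe read 11.30, 11.15 and 11.53 with label VD (11.32 ± 0.19, SD, n = 3) and 11.14, 11.49 and 11.68 with label vehicle (11.44 ± 0.28, SD, n = 3), a log2 fold change of -0.11 (SE 0.20, limma adjusted p = 0.883). Vehicle replicate 1 was lowest in all 5 exon probes, as in SNHG1, but vehicle replicate 3 was highest in 4 of them. SNORD1C read 9.27, 9.21 and 9.29 with label VD and 9.38, 9.76 and 9.28 with label vehicle, with vehicle replicate 2 highest.

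Between the places in the gene the median log2 fold change was -0.13 for the 73 tested exon probes, -0.36 for the 34 intron probes and -0.40 for the 43 snoRNA probes. It was below 0 for 64, 33 and 42 of them. On vehicle replicate 2 all kinds stood high, with median distances of 0.53, 0.59 and 0.73. On vehicle replicate 3 the exon probes stood at 0.12 and the intron and snoRNA probes at 0.43 and 0.37. On VD replicate 3 the exon probes stood at 0.02 and the intron probes at -0.34, and in 9 of 10 genes the intron median was below the exon median there. These are medians over probes of the same genes and arrays and were not tested. SNHG3, SNHG5, SNHG6 and SNHG8 had 1 tested intron probe each, and some intron probes lie largely in an exon.

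**Figure D4:**
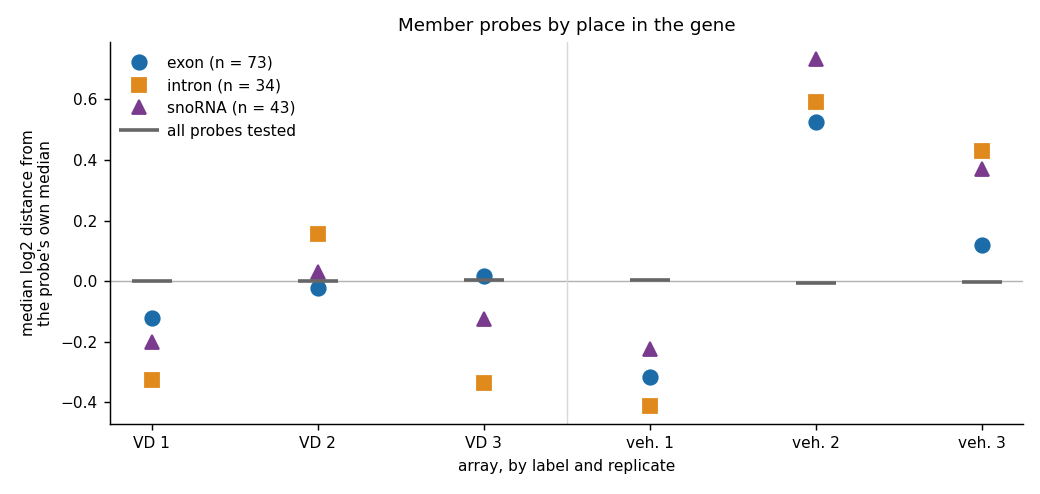
Median distance of the tested member probes from their own median over the 6 arrays (log2, vertical axis) on each array (horizontal axis), by place in the gene, beside all probes tested (grey bars). On vehicle replicate 2 all kinds lie between 0.53 and 0.73, and on VD replicate 3 and vehicle replicate 3 intron probes lie apart from exon probes.

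Among the 29 probes that lie wholly in a snoRNA, all had a fold change below 0, with a median of -0.37. Of the 21 probes in C/D box snoRNAs, 10 were lowest on vehicle replicate 1, 6 on VD replicate 1, 3 on VD replicate 2 and 2 on VD replicate 3. Of the 8 in H/ACA box snoRNAs, 5 were lowest on VD replicate 1 and 3 on VD replicate 2, the arrays of slide 1. The median distance of the H/ACA probes was -0.24, -0.22 and 0.01 on VD replicates 1, 2 and 3 and 0.02, 0.72 and 0.01 on vehicle replicates 1, 2 and 3. That of the C/D probes was -0.18, 0.07 and -0.22 with label VD and -0.26, 0.73 and 0.42 with label vehicle. The C/D probes came from GAS5, SNHG1, SNHG5, SNHG6 and SNHG16 and the H/ACA probes from the other 5 hosts, so class and host gene cannot be told apart. The classes were set apart after the values had been seen and their difference was not tested, and slide and label cannot be told apart on slide 1.

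Of the 34 snoRNAs listed for the 10 hosts, which leave out SNORA103 and LOC124900306 that RefSeq also places in GAS5 and SNHG1, 27 had a probe with at least 30 bases in them, and 26 of the 27 had a fold change below 0 (median -0.39). SNORD75 had an unadjusted p under 0.05 (6.77% of all probes tested), and none an adjusted p under 0.05. Of all probes tested 50.6% were below 0. SNORA73A, SNORA44, SNORA61 and SNORA16A lay between -0.57 and -0.41, as did C/D box snoRNAs such as SNORD25 (-0.57), SNORD50A (-0.54) and SNORD80 (-0.47). SNORD75 (-0.81) and SNORD77 (-0.79) were lower. Others of both classes, such as SNORA24 (-0.29) and SNORD44 (-0.24), were closer to 0. Not below 0 was SNORD1A of SNHG16, at 0.23 on the brighter of its probes (OEV5_33665) and -0.14 on the probe wholly inside it (A_21_P0000496).

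How much the shared direction rested on single arrays was described by leaving each out. Without vehicle replicate 1, 148 of 150 member probes were below 0 (50.5% of all probes tested), with a median of -0.51. An unadjusted p under 0.05 was reached by 64, all lower with label VD (4.21% of all probes tested). Of these, 12 also passed a fold change of 2 (1.75% of all probes tested). The 12 were 4 probes of GAS5, 4 of SNHG12, 2 of SNHG1 and 1 each of SNHG8 and SNHG15. The 64 were 13 of 73 exon, 25 of 34 intron and 26 of 43 snoRNA probes. None had an adjusted p under 0.05 in limma, the smallest being 0.370, where 4 of all 63337 probes did (0.00632%). Without vehicle replicate 2, 96 of 150 were below 0 (49.9% of all probes tested), with a median of -0.06, and 1 had an unadjusted p under 0.05 (4.06% of all probes tested). The shared direction thus weakened without vehicle replicate 2 and was wider and larger without vehicle replicate 1. Both shifts follow from the order of the arrays above, where these were mostly the highest and the lowest array. They restate that order and are not a separate result.

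**Figure D5:**
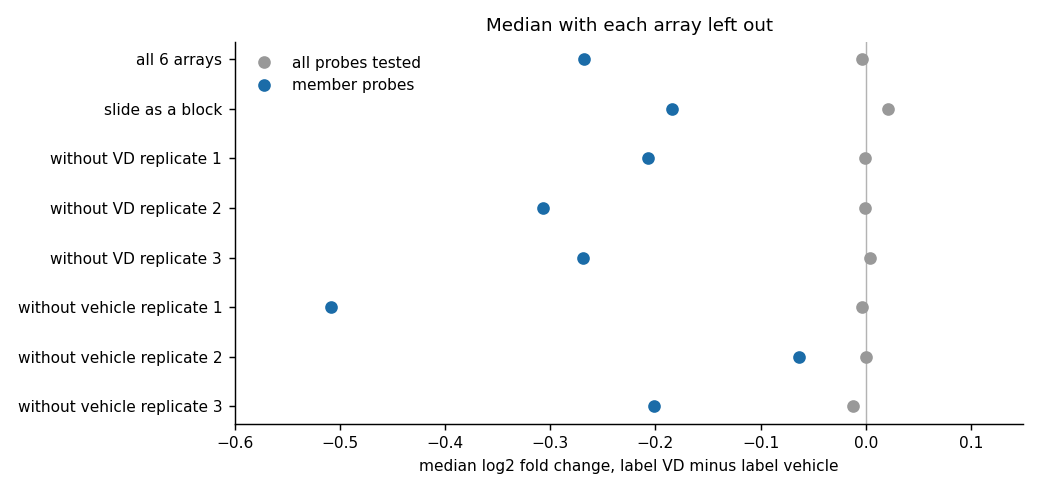
Median log2 fold change (label VD minus label vehicle, horizontal axis) of the 150 member probes (blue) and of all probes tested (grey) with all 6 arrays, with the slide as a block and with each array left out (vertical axis). The member median runs from -0.51 without vehicle replicate 1 to -0.06 without vehicle replicate 2, while the median of all probes stays within 0.03 of 0.

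Slide 2 held 1 VD array and the 3 vehicle arrays, and slide 1 held VD arrays alone, so the fit with slide as a block compares VD replicate 3 with the vehicle arrays. There 117 of 150 member probes were below 0 (47.1% of all probes tested) with a median of -0.18, and 1 probe, in an intron of SNHG7, passed a fold change of 2 with an unadjusted p under 0.05 (1.28% of all probes tested).

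Genes of the same process were read with 1 probe per gene, the brightest. Read in that way, the 10 members had a median log2 fold change of -0.30, with 10 of 10 below 0. In GAS5, SNHG3, SNHG7, SNHG8, SNHG12 and SNHG15 that probe was a snoRNA probe. For the counts that follow, the shares over all probes tested were 50.6% below 0 and 6.77% at an unadjusted p under 0.05. Vehicle replicate 2 was highest for 17.4% of all probes tested. The 27 protein-coding hosts of snoRNAs, mostly ribosomal protein and translation factor genes, had a median log2 fold change of -0.19, with 25 below 0 and 0 at an unadjusted p under 0.05. The 17 other snoRNA host lncRNAs, such as ZFAS1 and SNHG29, had a median of -0.12, with 12 below 0 and 0 past that p. ZFAS1 read about 18.1 on every array, near the highest deposited value of 18.8. The 12 proteins that assemble or form snoRNPs had a median of -0.17, with 10 below 0 and 1 past that p (NOP56 is in this list and among the protein-coding hosts). The 10 factors of nonsense-mediated decay had a median of 0.02, with 5 below 0 and 0 past that p. Vehicle replicate 2 was the highest array in 15 of the 27 protein-coding hosts, 6 of the 17 other host lncRNAs, 7 of the 12 snoRNP proteins and 4 of the 10 decay factors. In 10 of the 27 and 7 of the 17 the probe also matched another gene.

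Beside SNORD75, the list gene of the same process with an unadjusted p under 0.05 was RUVBL2, a helicase that helps assemble C/D box snoRNPs. It read 9.98, 10.56 and 10.44 with label VD and 10.64, 11.02 and 10.78 with label vehicle (log2 fold change -0.49, SE 0.20, limma adjusted p = 0.701). Its labels did not overlap, as was so for 5.18% of all probes tested in this direction. KRT19, among the epithelial markers, read 12.24, 12.65 and 11.93 with label VD and 12.84, 13.68 and 12.56 with label vehicle (log2 fold change -0.75, SE 0.32, limma adjusted p = 0.701).

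The 4 member probes that did not pass the filter were 1 of SNHG5, 1 of SNHG7 and 2 of SNHG15, well above background on 0 to 3 of the 6 arrays with values of 2.07 to 5.12. Of the 150 tested, 149 were well above background on all 6 arrays and 1 on 5. Each member probe had 1 spot on each array, so no spread between spots can be given, and the 6 arrays limit the precision.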

How the data were processed

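The authors labelled the RNA with Cy3, hybridized 1 sample per array and read the arrays with Agilent Feature Extraction 10.7.1.1 (per the file headers). They deposited for each spot its intensity and flags, and a table of log2 values per probe and array whose method was not given in the sources used here. The sorted columns of the deposited log2 table differ by at most 0.000913, so it was normalized by quantiles between arrays. Its rank correlation with the scanner intensity of the same array was at least 0.9998. It was not centred per probe (range 2.00 to 18.8).

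Each probe sequence was searched for exact matches in the transcripts of GENCODE release 44 and in hg38. The arrays' design files name hg19, so coordinates come from this match, and snoRNA positions from RefSeq (GRCh38.p14). The members and gene lists were chosen with earlier results of these data known. The deposited log2 values were fitted with limma 3.58.1 in R 4.3.3 (lmFit, eBayes, no covariate) over the 63337 probes flagged well above background on each of the 3 arrays of 1 label or the other. The Benjamini-Hochberg adjustment ran over all of them, and the fit was tested on simulated data. A gene's value is that of its probe with the highest mean. The genes named are the 10 members, CYP24A1, and in each list at most the 4 genes of smallest unadjusted p under 0.05, and other names were chosen after their values were seen. Alternatives were scanner signals at the 75th percentile, normexp (offset 50) with quantile normalization, no filter and detection on each of the 6 arrays. Others were a block for the slide or for the replicate number, each array left out, an unpaired t-test and 1 probe per gene. The methods give such a t-test with the quantitative experimental data, and limma for the arrays. Exon probes only and probes of 1 gene only were chosen after seeing the data. Arrays were not regrouped by CYP24A1.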

Additional observations from a re-analysis of the deposited data

How the results depend on the processing

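Over 17 alternatives the count of member probes past both a fold change of 2 and an unadjusted p of 0.05 (0 in the report) was 1 with the slide as a block, 0 to 12 with an array left out (12 without vehicle replicate 1) and 0 in the others. Without vehicle replicate 1 the 12 stand beside 1.75% of all probes tested. The count with an unadjusted p under 0.05 was 3 in the report, against 6.77% of all probes tested. It was 6 with normexp (7.29% of all probes) and 1 with an unpaired t-test (6.18%). With 1 probe per gene it was 0 and with exon probes only 1 of 73 (these lists hold fewer probes). With an array left out it was 1 to 64, against 2.46% to 15.24% of all probes. The 64 came without vehicle replicate 1 (10.22% of all probes). No alternative gave a member probe an adjusted p under 0.05. The median and the share below 0 kept their direction in all 17, with medians of -0.51 to -0.06 with an array left out. The replicate block and the t-test do not alter a fold change, so their agreement was fixed in advance. The replicate numbers did not pair the arrays: the correlations of same-numbered deviations were 0.121, 0.092 and -0.025, and not every array correlated best with its own number. With the replicate number as a block, 5 member probes had an unadjusted p under 0.05 (7.48% of all probes tested) and 0 an adjusted p under 0.05.

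Of 150 gene values under alternatives, 143 kept their sign, with limma adjusted p from 0.190 to 1.000. Part of this count could not have come out otherwise. The changes of the background filter, the replicate block and the t-test repeated the fold change of the report in every gene. The exon probe with the highest mean was also the probe of the report in SNHG1, SNHG5, SNHG6 and SNHG16. The 143 thus overstates how far the sign was put to a test. With an array left out, the log2 fold change ran from -0.67 to 0.14 in SNHG1, from -0.26 to 0.092 in SNHG5 and from -0.39 to 0.065 in SNHG6, with the positive value without vehicle replicate 2, and from -0.26 to 0.011 in SNHG16, with the positive value without vehicle replicate 3. Below 0 throughout, but smaller by over 1.5 times without vehicle replicate 2, were GAS5 (-0.51 to -0.046), SNHG12 (-0.60 to -0.080), SNHG8 (-0.39 to -0.11), SNHG7 (-0.53 to -0.19) and SNHG3 (-0.77 to -0.30), while SNHG15 ran from -0.55 to -0.31. With the slide as a block the log2 fold change was 0.058 in SNHG5 and 0.091 in SNHG16, and as the mean of all its probes 0.012 in SNHG16. The cause was not tested. For GAS5, SNHG3, SNHG7, SNHG8, SNHG12 and SNHG15 the gene value is that of a snoRNA probe. In SNHG3 the log2 fold change was -0.024 on the brightest exon probe and -0.14 as the mean of all its probes. Matching members by sequence whatever their name gave the same probes by construction. The lone VD array in the slide block is assumed to vary like the other arrays.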
